A study of Caenorhabditis elegans with 8 samples.

Results

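The genes described here encode the proteins of the RNA interference and small RNA pathways of the nematode Caenorhabditis elegans. They were taken from a list of 43 gene names by matching each name to the gene column of the poly(A) table. 32 genes were found that way, of 44968 rows in that table, and the same 32 were found by their sequence names among the 25640 genes of the rRNA-depleted table. One further name, rde-3, belongs to the gene listed as mut-2. The remaining 10 names (rde-8, rde-10, rde-11, rde-12, drh-2, hrde-1, wago-1, nrde-1, nrde-2 and nrde-4) do not stand in the gene column and were left out of every count below; they are described under their sequence names at the close.

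RNA was measured in synchronized young adults grown in liquid culture. Animals were treated with RNAi against CstF50, the product of cpf-1 and one of the subunits of cleavage stimulation factor, which helps to form the 3′ ends of mRNAs. They were set against wild type, the strain N2 with the empty RNAi vector L4440 according to the header of the poly(A) table. Each of these conditions was sequenced as 2 libraries of poly(A)-selected RNA and 2 libraries of rRNA-depleted RNA, 8 libraries in all, from whole washed animals.

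RNA interference begins when Dicer cuts double-stranded RNA into short interfering RNAs that are loaded onto a primary Argonaute protein. RNA-dependent RNA polymerases and the mutator proteins then copy the targeted transcript into secondary small RNAs, which are bound by worm-specific Argonautes in the cytoplasm and the nucleus. The same Dicer also processes microRNAs, and a separate Piwi pathway guards the germline. An RNAi treatment, such as the one used here against CstF50, itself runs through this pathway.

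For poly(A) RNA the authors' deposited table holds 1 FPKM (fragments scaled by transcript length and by sequencing depth) for each condition and the p-value and q-value of a test in Cuffdiff's layout, and no value per library. The error of a log2 fold change was therefore the standard error (SE) implied by the authors' p-value. For rRNA-depleted RNA the deposited table calls its conditions A and B, and its headers do not say which is wild type, so its differences are given as condition B against condition A and no treatment is assigned to them. Its means of normalized counts could be taken apart into whole counts per library for all 32 genes. Library 1 of a condition is the one with the larger size factor, a name that pairs it with no library of the other condition. The recovered counts of the 32 genes ran from 544 to 14430 and from 207 to 5780 in the libraries of condition B, against 46 to 3016 and 19 to 1009 in those of condition A, so the values of condition A rest on fewer counts. Every FPKM, q-value and DESeq adjusted p given here is a value of the authors' deposited tables, and each normalized count of a single library was recovered from them. In both tables a gene was called where the q-value or adjusted p was under 0.05. Each test rests on 2 libraries per condition that no label describes as separate cultures, so the p-values measure a spread that may be technical. In whole animals fewer cells of a type and less RNA per cell cannot be told apart.

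The targeted gene cpf-1 did not have the lower poly(A) value after its own RNAi: the authors' deposited table gives it 67.8 FPKM in CstF50 RNAi and 50.5 FPKM in wild type (q-value 0.613). Sequence of the introduced double-stranded RNA can be counted as cpf-1, which was not tested, so these values do not check the label. In rRNA-depleted RNA it had 8662 normalized counts in condition B and 1695 in condition A (DESeq adjusted p = 0.00296, authors' deposited table). Most poly(A) transcripts stood lower in the RNAi group: 80.0% of the 8513 tested genes did, and the median over the 8244 that have a log2 fold change was -0.90. Marker lists for tissues also held called genes, and their part in the results below was not tested. Of all tested genes 13.6% were called lower and 3.12% higher in poly(A) RNA. Of 17 germline markers 3 were called lower, and their median log2 fold change was -1.06. They summed to 945 FPKM in CstF50 RNAi and 2110 FPKM in wild type, where the highest single value was 817 FPKM. Of 11 oocyte markers 1 was called lower, while 8 had the lower and 3 the higher FPKM in CstF50 RNAi. The oocyte markers summed to 13400 FPKM in CstF50 RNAi and 12800 FPKM in wild type. Of 13 tested sperm markers 8 were called higher, and the 20 on the list summed to 952 FPKM in CstF50 RNAi and 98.5 FPKM in wild type. In rRNA-depleted RNA 16 of the 20 sperm markers were called higher in condition B, where they summed to 10528 normalized counts, against 268 in condition A, in which 6 of them were listed at 0. The germline list there had 2 genes called higher and 1 called lower, and the oocyte list had none of either. Of all genes 5.54% were called higher and 2.77% lower in condition B. Of the intestine markers 2 of 5 tested were called lower in poly(A) RNA, as were 2 of 5 tested muscle and neuron markers. In rRNA-depleted RNA 1 of 7 intestine markers was called higher and 2 lower in condition B, and of 9 muscle and neuron markers 4 were called higher and 1 lower.

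In poly(A) RNA the genes of the pathway had lower FPKM in CstF50 RNAi nearly throughout, but of the 26 tested genes only rde-1, mut-16 and pash-1 passed the authors' test. These 3 were 11.5% of the 26 tested genes, against 16.8% called in either direction among all tested genes, 13.6% lower and 3.12% higher, so the pathway was not called more often than the background. At an unadjusted p-value under 0.05 there were 11 genes lower and 0 higher, 42.3% of the 26, beside 33.3% of all tested genes, 28.4% in the lower direction. 25 of the 26 genes (96.2%) had the lower FPKM in CstF50 RNAi, beside the 80.0% of all tested genes, and eri-5 was the exception. The median log2 fold change was -1.02, beside -0.90 for all tested genes, and 17 of the 26 stood below that median gene. Set relative to the median gene, none of the 26 passed a test on normal deviates adjusted by Benjamini-Hochberg, and 1 was lower and 1 higher at an unadjusted p under 0.05. Of all genes 6.14% passed that test, 5.63% higher and 0.51% lower. The other 6 genes, rrf-1, rrf-2, rrf-3, sago-2, sid-1 and drsh-1, had not been tested by the authors. Their highest FPKM in either group was 6.36, and no gene with their status in the table exceeded 6.589 FPKM.

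**Figure D1:**
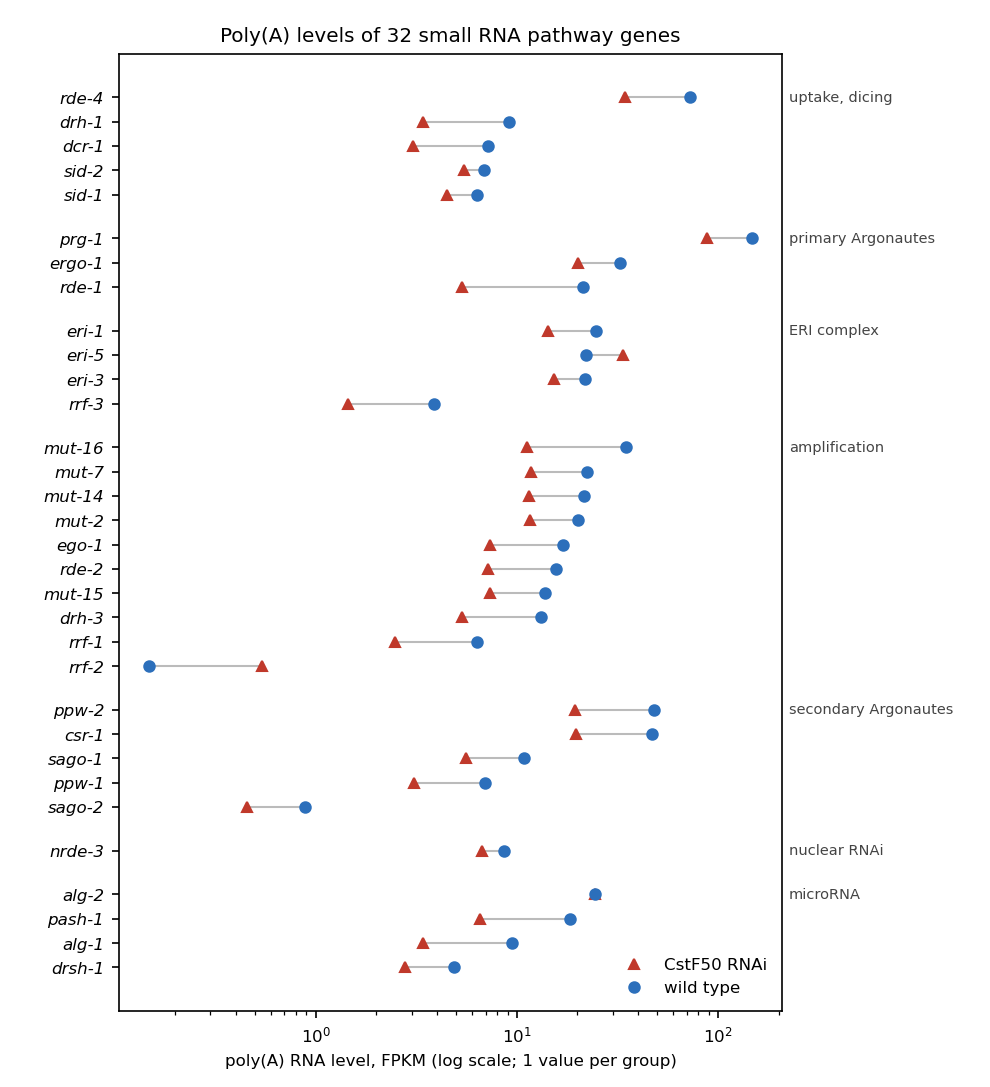
Poly(A) level of each of the 32 genes in FPKM on a log axis, with a triangle for CstF50 RNAi and a circle for wild type, grouped by role; each symbol is 1 group value with no spread. The triangle lies left of the circle for every gene but eri-5 and rrf-2, and on it for alg-2.

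The proteins that take up and cut double-stranded RNA had lower FPKM in CstF50 RNAi without a call. The gene for the double-stranded RNA-binding partner of Dicer, rde-4, had 34.7 FPKM in CstF50 RNAi and 72.9 FPKM in wild type (log2 fold change -1.07, implied SE 0.48, q-value 0.101, all from the authors' deposited table). Dicer itself, dcr-1 (chromosome III, 8071850 to 8080208, ce10), had 3.04 FPKM in CstF50 RNAi and 7.20 FPKM in wild type, a log2 fold change of -1.24 (implied SE 0.54, q-value 0.0881). The Dicer-related helicase gene drh-1, which acts in antiviral RNAi, had 3.42 FPKM in CstF50 RNAi and 9.11 FPKM in wild type (log2 fold change -1.41, q-value 0.0842). Of the genes for double-stranded RNA import, the channel gene sid-1 had 4.52 FPKM in CstF50 RNAi and 6.36 FPKM in wild type and was not tested. The gut uptake gene sid-2 had 5.45 FPKM in CstF50 RNAi and 6.91 FPKM in wild type (q-value 0.782), and its wild-type level was the lowest among the 26 tested genes.

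In rRNA-depleted RNA dcr-1 was 1 of 2 genes among the 32 that the authors' DESeq test called, and it was higher in condition B. These 2 of 32 genes, dcr-1 and rrf-2, are 6.25%, against 8.31% of all 25640 genes called in either direction and 5.54% called higher. At an unadjusted p-value under 0.05 in the authors' deposited table there were 7 genes higher and 1 lower in condition B, 8 of 32, beside 4108 of 25640 genes in all, with 9.88% of all genes in the higher direction. The normalized counts of dcr-1 were 3268 and 3162 in the libraries of condition B, against 1486 and 1477 in those of condition A. They rest on recovered counts of 11870 and 4872 in condition B and of 1098 and 368 in condition A. The groups did not overlap, and the libraries within a condition lay within a small part of the distance between them. The authors' deposited means were 3215 ± 74.7 in condition B and 1482 ± 6.31 in condition A (SD of the recovered libraries, n = 2 each), a 2.17-fold difference with a DESeq adjusted p of 5e-06. By limma-voom on the recovered counts the log2 difference was 1.13 (SE 0.10, adjusted p = 2.5e-05).

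None of the other uptake and dicing genes passed the DESeq test. Both libraries of condition B lay above both of condition A for sid-1, sid-2 and drh-1. The same held for 41.7% of the 16786 genes with enough recovered counts. For sid-1 the normalized counts were 539.9 and 629.6 in condition B, against 460.2 and 341.2 in condition A (adjusted p = 0.716 in the authors' deposited table). For drh-1 they were 1178 and 1253 in condition B, against 1017 and 907.3 in condition A (adjusted p = 0.848). The libraries of rde-4 overlapped, with 1777 and 1888 in condition B and 1543 and 1895 in condition A.

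**Figure D2:**
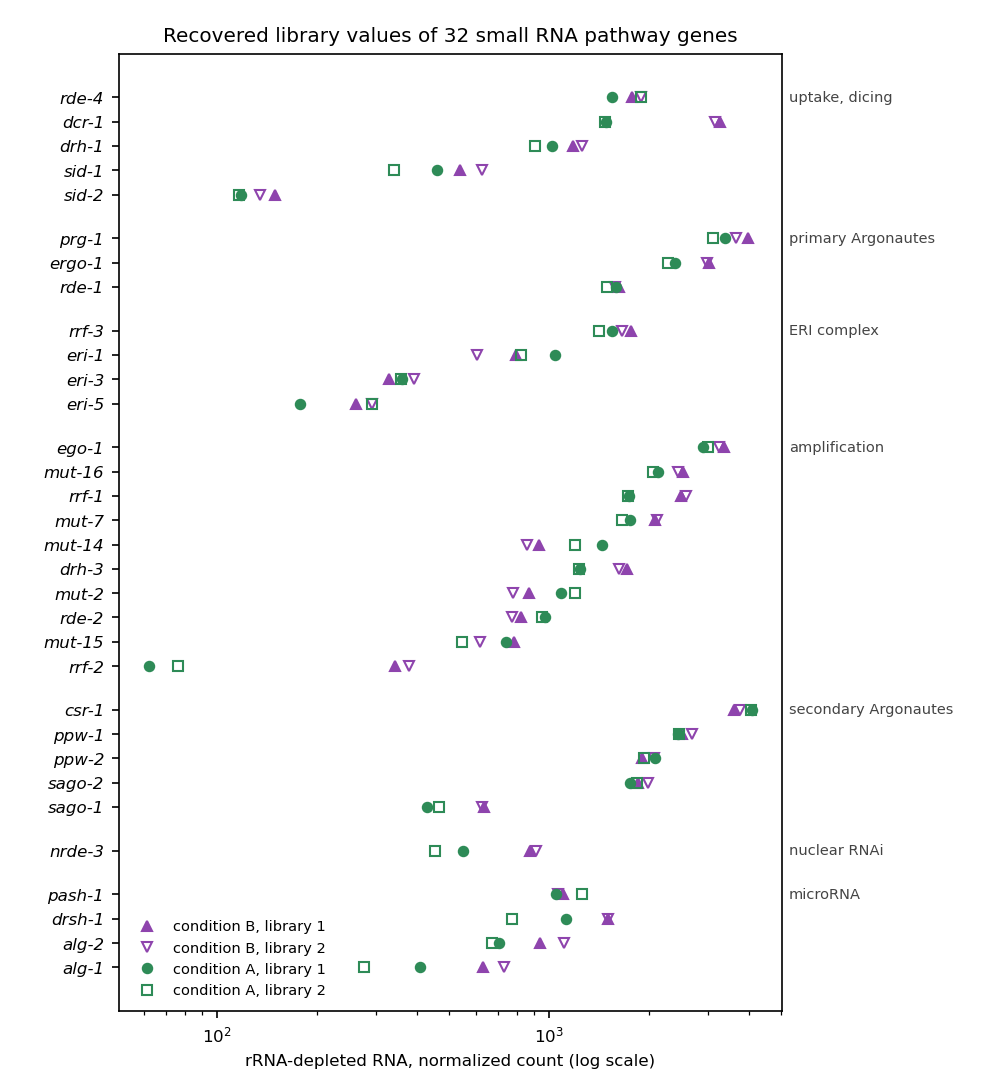
Normalized counts of the 32 genes in each rRNA-depleted library on a log axis, recovered from the authors' means, with purple triangles for the 2 libraries of condition B and green circles and squares for those of condition A, grouped by role. The symbols of dcr-1 and rrf-2 are the most widely separated, at 3268 and 3162 in condition B against 1486 and 1477 in condition A for dcr-1, and at 344 and 378 in condition B against 62.3 and 76.3 in condition A for rrf-2.

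Among the primary Argonautes rde-1 fell. Its protein binds the first short interfering RNAs cut from introduced double-stranded RNA and is required for RNAi by such RNA. The authors' deposited table gives rde-1 (K08H10.7, chromosome V, 9987891 to 9991618, ce10) 5.34 FPKM in CstF50 RNAi and 21.3 FPKM in wild type, which is 3.98-fold lower. Its log2 fold change of -1.99 (implied SE 0.53) had a q-value of 0.00473 and was the most negative of the 26 tested genes. Relative to the median gene it was -1.10, with an adjusted p of 0.282, so the call rests on the comparison that is not centred on the median gene. No other gene lies within its locus as the authors give it. In rRNA-depleted RNA its libraries overlapped, at 1627 and 1580 normalized counts in condition B and 1590 and 1493 in condition A, and the DESeq adjusted p in the authors' deposited table was 1.

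The gene of the Piwi protein, prg-1, whose product binds piRNAs in the germline, had the highest poly(A) level of the 32 genes. The authors' deposited table gives it 87.8 FPKM in CstF50 RNAi and 148 FPKM in wild type (q-value 0.236). Its fold change of -0.75 on the log2 scale (implied SE 0.46) lay above that of the median gene. The Argonaute gene ergo-1, which acts in an endogenous RNAi pathway, had 20.2 FPKM in CstF50 RNAi and 32.7 FPKM in wild type (q-value 0.299). In rRNA-depleted RNA both, like 41.7% of the 16786 genes with enough recovered counts, had higher normalized counts in each library of condition B. For prg-1 these were 3973 and 3645 in condition B, against 3396 and 3119 in condition A (DESeq adjusted p = 1 in the authors' deposited table). For ergo-1 they were 3033 and 2994 in condition B, against 2394 and 2284 in condition A (DESeq adjusted p = 0.516; limma-voom adjusted p = 0.00903, and 0.0911 without library 1 and 0.111 without library 2 of condition A).

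The ERI complex, in which Dicer works with the RNA-dependent RNA polymerase RRF-3 to make endogenous small RNAs and which was represented by eri-1, eri-3, eri-5 and rrf-3, had none of these called in either table. Of them eri-5 encodes a tudor-domain protein of the complex. For eri-5 the authors' deposited table gives 33.9 FPKM in CstF50 RNAi and 21.97 FPKM in wild type (log2 fold change 0.62, implied SE 0.56, q-value 0.425). It was the only one of the 26 tested genes with the higher value in CstF50 RNAi. Relative to the median gene its log2 fold change was 1.52, with an adjusted p of 0.091, so this did not pass either. The exonuclease gene eri-1, whose loss makes worms more sensitive to RNAi, had 14.3 FPKM in CstF50 RNAi and 24.9 FPKM in wild type (q-value 0.407). For eri-3 the levels were 15.2 FPKM in CstF50 RNAi and 21.9 FPKM in wild type (q-value 0.540). The polymerase gene rrf-3 had 1.46 FPKM in CstF50 RNAi and 3.88 FPKM in wild type and was not tested.

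In rRNA-depleted RNA the libraries of eri-5 did not separate the conditions. It had 261.5 and 293.4 normalized counts in condition B and 177.3 and 293.1 in condition A, and its difference of 0.72 on the log2 scale between the libraries of condition A was the widest of the 32 genes. The exons of eri-5 overlap those of Y38F2AR.10 on the opposite strand in the WBcel235 annotation, and whether the authors counted by strand is not given in the sources used here. That neighbour had 10036 normalized counts in condition B and 29152 in condition A (DESeq adjusted p = 0.0175 in the authors' deposited table), a difference in the other direction from that of eri-5. Its part in the value of eri-5 was not tested. For eri-1 the libraries were 794.8 and 606.2 in condition B, against 1041 and 823.0 in condition A, so that all of condition B lay below condition A (DESeq adjusted p = 0.552).

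**Figure D3:**
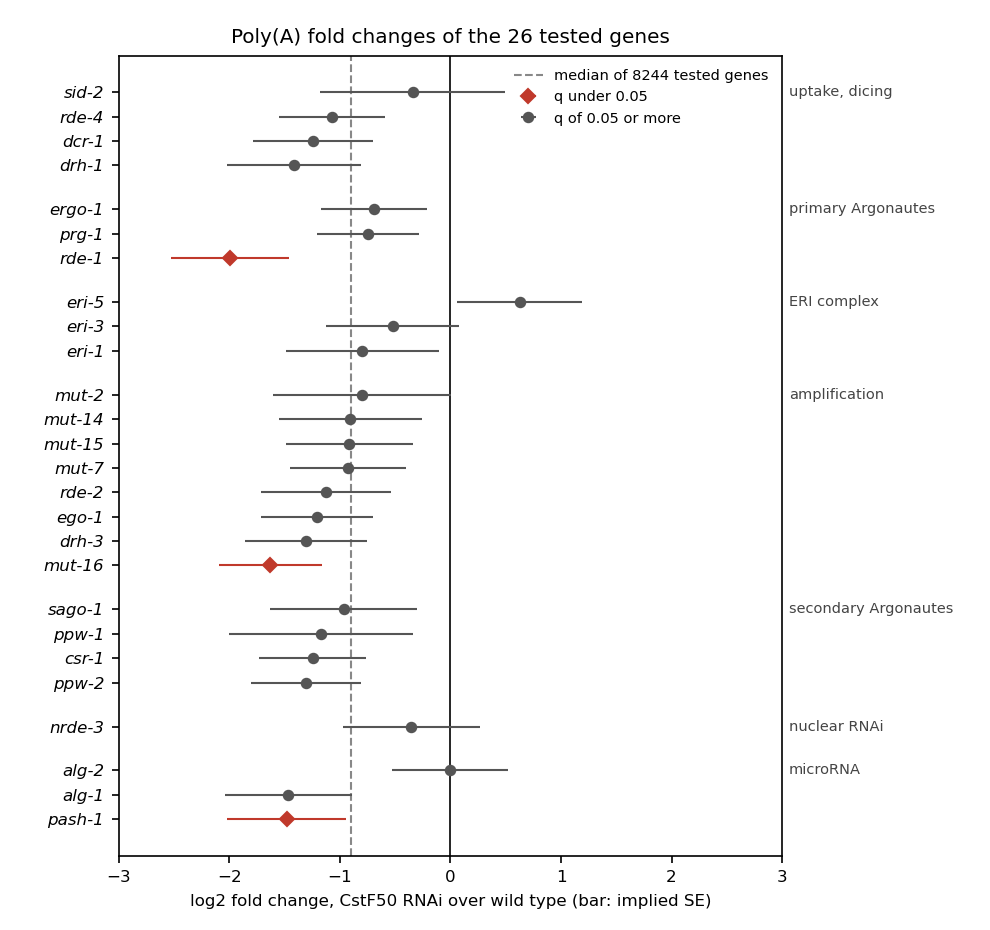
Log2 fold change in poly(A) RNA, CstF50 RNAi over wild type, of the 26 tested genes grouped by role; bars are the SE implied by the authors' p-values and the dashed line is the median of 8244 tested genes at -0.90. The red diamonds of rde-1, mut-16 and pash-1 have q-values under 0.05, and only eri-5 lies right of 0.

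Amplification of the signal by the mutator proteins and the RNA-dependent RNA polymerases was represented by 10 genes, of which mut-16 fell in poly(A) RNA. Its protein is the scaffold on which the mutator foci of the germline assemble. The authors' deposited table gives mut-16 (B0379.3, chromosome I, 10080141 to 10086280, ce10) 11.3 FPKM in CstF50 RNAi and 34.8 FPKM in wild type, which is 3.09-fold lower. The log2 fold change was -1.63 (implied SE 0.47) with a q-value of 0.00934, and relative to the median gene it was -0.73. In rRNA-depleted RNA mut-16 had 2523 and 2449 normalized counts in condition B, against 2122 and 2059 in condition A. The conditions did not overlap, but the DESeq adjusted p was 0.873 in the authors' deposited table and the limma-voom adjusted p was 0.0486. The limma-voom test missed the threshold with library 1 of condition A left out (0.247) and with library 2 left out (0.283).

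The other mutator genes had log2 fold changes close to that of the median gene in poly(A) RNA. The 3′ exonuclease gene mut-7 had 11.8 FPKM in CstF50 RNAi and 22.3 FPKM in wild type (q-value 0.196), and rde-2, whose product partners MUT-7, had 7.20 FPKM in CstF50 RNAi and 15.7 FPKM in wild type (q-value 0.157). The DEAD-box helicase gene mut-14 had 11.6 FPKM in CstF50 RNAi and 21.6 FPKM in wild type (q-value 0.309). The gene mut-15 had 7.34 FPKM in CstF50 RNAi and 13.8 FPKM in wild type (q-value 0.242). The nucleotidyltransferase gene mut-2, listed also as rde-3, had 11.6 FPKM in CstF50 RNAi and 20.2 FPKM in wild type (q-value 0.478), within a locus that also holds bli-4.

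In rRNA-depleted RNA the mutator genes did not all lean the same way. The libraries of condition B lay wholly below those of condition A for mut-14, mut-2 and rde-2, and wholly above them for mut-7 and mut-16. Of the 16786 genes with enough recovered counts 29.3% had condition B wholly below and 41.7% wholly above. For mut-14 the normalized counts were 931.7 and 854.8 in condition B, against 1444 and 1200 in condition A, with a DESeq adjusted p of 0.0615 in the authors' deposited table and a limma-voom adjusted p of 0.00525, which became 0.196 without library 1 of condition A. A close relative, smut-1, can share reads with mut-14, and how such reads were counted is not given in the sources used here; smut-1 had 1016 normalized counts in condition B and 1027 in condition A. For mut-2 they were 871.1 and 778.2 in condition B, against 1084 and 1200 in condition A (limma-voom adjusted p = 0.0222, and 0.0985 without library 1 and 0.114 without library 2 of condition A). Its exons overlap those of bli-4 on the opposite strand, and bli-4 had 3575 normalized counts in condition B and 2736 in condition A.

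Of the RNA-dependent RNA polymerase genes rrf-2 was called in rRNA-depleted RNA, with the largest difference of the 32 genes. It belongs to the polymerase family of rrf-1, ego-1 and rrf-3. The library values of rrf-2 (M01G12.12, chromosome I, 12098659 to 12105968, ce10) were 344 and 378 normalized counts in condition B, against 62.3 and 76.3 in condition A. They rest on 1249 and 582 recovered counts in condition B and on 46 and 19 in condition A, the fewest of the 32 genes in that condition. The deposited means were 361 ± 24.0 in condition B and 69.3 ± 9.91 in condition A (SD, n = 2 each), a 5.21-fold difference. The authors' deposited table gives it a DESeq adjusted p of 9.23e-09. By limma-voom the log2 difference was 2.42 (SE 0.29, adjusted p = 0.000219).

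In poly(A) RNA rrf-2 had the lowest level of the 32 genes, with 0.541 FPKM in CstF50 RNAi and 0.148 FPKM in wild type in the authors' deposited table. It was not tested there, so the higher value in CstF50 RNAi carries no adjusted value, and the implied SE of its log2 fold change of 1.87 was 0.99. Per kilobase of exon it was also the lowest of the 32 genes in rRNA-depleted RNA, with 74.2 normalized counts per kilobase in condition B and 14.3 in condition A.

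The polymerase genes rrf-1 and ego-1 lie next to each other on chromosome I, from 7643426 to 7649773 and from 7650410 to 7656332 (ce10). EGO-1 acts in the germline and RRF-1 mainly in somatic tissue. In the authors' deposited table ego-1 had 7.36 FPKM in CstF50 RNAi and 17.0 FPKM in wild type (log2 fold change -1.21, q-value 0.0769). The level of rrf-1 was 2.49 FPKM in CstF50 RNAi and 6.33 FPKM in wild type, and it was not tested. In rRNA-depleted RNA rrf-1 had 2495 and 2590 normalized counts in condition B, against 1734 and 1726 in condition A (DESeq adjusted p = 0.105 in the authors' deposited table; limma-voom adjusted p = 0.00143). For ego-1 the gap was narrower, with 3358 and 3245 in condition B, against 2914 and 3011 in condition A (DESeq adjusted p = 1). The helicase gene drh-3, needed for the polymerases to make secondary small RNAs, had 5.32 FPKM in CstF50 RNAi and 13.2 FPKM in wild type (q-value 0.0798). Its normalized counts were 1719 and 1621 in condition B, against 1241 and 1232 in condition A (DESeq adjusted p = 0.339; limma-voom adjusted p = 0.00883, and 0.109 without library 1 and 0.0668 without library 2 of condition A).

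None of the secondary Argonaute genes passed the authors' test in either table, though ppw-2 and csr-1 came close to it in poly(A) RNA. The germline Argonaute gene ppw-2 had 19.4 FPKM in CstF50 RNAi and 48.0 FPKM in wild type (log2 fold change -1.31, implied SE 0.50, q-value 0.0507) in the authors' deposited table. The gene csr-1, whose Argonaute targets germline-expressed genes, had 19.8 FPKM in CstF50 RNAi and 47.0 FPKM in wild type (log2 fold change -1.25, implied SE 0.49, q-value 0.0570). In rRNA-depleted RNA the libraries of ppw-2 overlapped, with 1910 and 2073 normalized counts in condition B and 2087 and 1935 in condition A. For csr-1 they lay slightly lower in condition B, at 3610 and 3752, against 4082 and 4051 in condition A (DESeq adjusted p = 1 in the authors' deposited table).

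The other secondary Argonautes were low in poly(A) RNA. The gene sago-1 had 5.59 FPKM in CstF50 RNAi and 10.9 FPKM in wild type (q-value 0.292), and ppw-1, required for RNAi in the germline, had 3.08 FPKM in CstF50 RNAi and 6.92 FPKM in wild type (q-value 0.309). For sago-2 the authors' deposited table lists 0.458 FPKM in CstF50 RNAi and 0.890 FPKM in wild type, without a test. Its locus on chromosome I, from 614656 to 629447 (ce10), also holds F56A6.4, which had 36.3 FPKM in CstF50 RNAi and 8.33 FPKM in wild type (q-value 0.00329). In rRNA-depleted RNA sago-2 and ppw-1 were among the higher genes instead. The normalized counts of sago-2 were 1851 and 1982 in condition B, against 1752 and 1843 in condition A, and those of ppw-1 were 2507 and 2701 in condition B, against 2439 and 2453 in condition A. Both genes had a DESeq adjusted p of 1 in the authors' deposited table. The genes ppw-1 and sago-2 are close relatives, so reads can match both genes, and their values are uncertain to that extent. For sago-1 the libraries of condition B, at 634.9 and 627.7, lay above those of condition A, at 427.7 and 465.7 (DESeq adjusted p = 0.312; limma-voom adjusted p = 0.0158, and 0.211 without library 1 and 0.0575 without library 2 of condition A).

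The nuclear branch was represented by nrde-3 alone, whose Argonaute carries small RNAs into the nuclei of somatic cells. It had 6.75 FPKM in CstF50 RNAi and 8.63 FPKM in wild type, which the authors' deposited table gives a q-value of 0.691 (log2 fold change -0.35, implied SE 0.62). In rRNA-depleted RNA its normalized counts were 874.4 and 912.6 in condition B, against 548.2 and 453.6 in condition A. The groups did not overlap and differed 1.78-fold, with a DESeq adjusted p of 0.0525 in the authors' deposited table, just outside the threshold, and a limma-voom adjusted p of 0.00237.

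Of the microRNA genes pash-1 fell in poly(A) RNA. Its protein is the partner of Drosha in cutting primary microRNA transcripts in the nucleus. The authors' deposited table gives pash-1 (T22A3.5, chromosome I, 10598697 to 10606729, ce10) 6.58 FPKM in CstF50 RNAi and 18.4 FPKM in wild type, which is 2.79-fold lower. The log2 fold change was -1.48 (implied SE 0.54) with a q-value of 0.0407, the weakest of the 3 calls. With p-values adjusted over every row of the table, untested rows included, the q-value rose to 0.200. Relative to the median gene the log2 fold change was -0.59, with an adjusted p of 0.737 by the test on normal deviates. In rRNA-depleted RNA the libraries of pash-1 overlapped, at 1098 and 1063 normalized counts in condition B and 1050 and 1257 in condition A (DESeq adjusted p = 1). The Drosha gene drsh-1 had 2.77 FPKM in CstF50 RNAi and 4.89 FPKM in wild type and was not tested. Its normalized counts were 1507 and 1503 in condition B, against 1122 and 774.8 in condition A, so that the spread within condition A was close to its distance from condition B (DESeq adjusted p = 0.411; limma-voom adjusted p = 0.00962, and 0.0726 without library 2 of condition A).

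The microRNA Argonautes alg-1 and alg-2, whose proteins have overlapping functions, had unlike values in poly(A) RNA. In the authors' deposited table alg-1 had 3.41 FPKM in CstF50 RNAi and 9.42 FPKM in wild type (log2 fold change -1.47, implied SE 0.57, q-value 0.0577). For alg-2 the value was 24.4 FPKM in CstF50 RNAi and 24.4 FPKM in wild type (q-value 0.999), and the difference between the fold changes of alg-1 and alg-2 was not tested. In rRNA-depleted RNA both had the higher values in condition B. The normalized counts of alg-1 were 633.2 and 731.5 in condition B, against 408.8 and 277.0 in condition A (DESeq adjusted p = 0.0886; limma-voom adjusted p = 0.00599). Those of alg-2 were 941.3 and 1107 in condition B, against 707.9 and 674.4 in condition A (DESeq adjusted p = 0.242; limma-voom adjusted p = 0.0153, and 0.0811 without library 1 and 0.0610 without library 2 of condition A).

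Across the 32 genes in rRNA-depleted RNA, the mean of condition B was the higher in 25 and the lower in 7, where 59.8% of all genes had the higher mean in condition B. Of all 25640 genes 5294 were listed at 0 in condition A and 567 in condition B. None of the 32 genes was at 0, so that share comes from an unlike set of genes. Both libraries of condition B lay above both of condition A in 20 genes (62.5%), where 41.7% of the 16786 genes with enough recovered counts did so. They lay below in 5 genes (15.6%), namely csr-1, eri-1, mut-2, mut-14 and rde-2, where 29.3% of all genes did so, and the libraries of the other 7 genes overlapped. The median log2 difference was 0.23 for the 32 genes in the authors' deposited table and 0.02 for all genes. Among genes with enough recovered counts for limma-voom it was 0.25 for the 32 genes and 0.13 for all. By that test 12 genes were higher and 2, mut-2 and mut-14, lower in condition B, which is 43.8% of the 32 genes beside 35.7% of all genes (21.2% higher and 14.5% lower). That order turned round when a library of condition A was left out: 18.8% of the 32 genes were called beside 25.3% of all genes without its library 1, and 21.9% beside 30.4% without its library 2. The genes called with each library left out in turn were dcr-1, rrf-2, rrf-1, nrde-3 and alg-1, and the other 9 calls, those of ergo-1, alg-2, mut-2, mut-7, mut-14, mut-16, drh-3, sago-1 and drsh-1, were lost without at least 1 library of condition A. Libraries of the same condition differed by a median of 0.09 on the log2 scale in condition B and 0.12 in condition A.

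**Figure D4:**
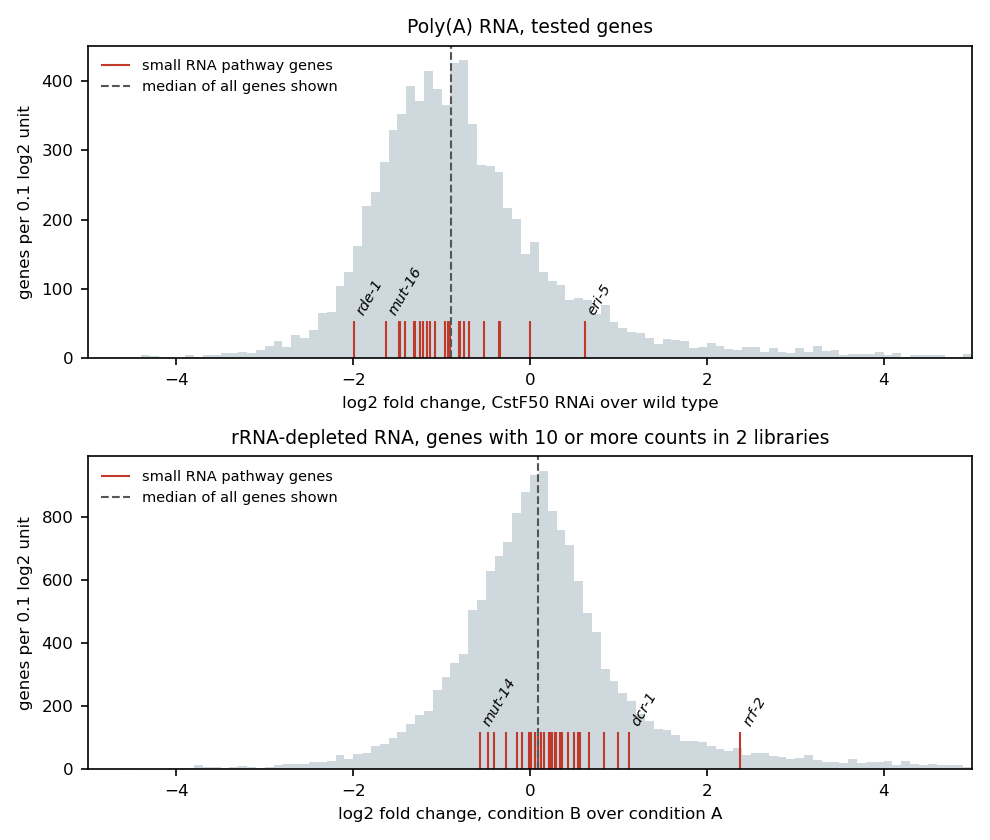
Distribution of log2 fold changes of all genes (grey, genes per 0.1 log2 unit) with the pathway genes as red ticks; the upper panel shows poly(A) RNA, CstF50 RNAi over wild type, and the lower panel rRNA-depleted RNA, condition B over condition A. The poly(A) ticks run from -1.99 for rde-1 to 0.62 for eri-5 within the bulk of the grey distribution, and in the lower panel rrf-2 at 2.38 stands farthest to the right.

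None of the genes was called in both tables. The 3 genes called lower in poly(A) RNA had log2 differences of 0.06 (rde-1), 0.25 (mut-16) and -0.09 (pash-1) between condition B and condition A in rRNA-depleted RNA. The 2 genes called in rRNA-depleted RNA were dcr-1, lower in CstF50 RNAi in poly(A) RNA without a call, and rrf-2, untested there. Since the treatment behind A and B is not named, these signs were not compared between the tables.

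The order of the genes by level was shared in part between the kinds of RNA. Levels were averaged over the groups, as FPKM in poly(A) RNA and as normalized counts per kilobase of exon (WBcel235 annotation) in rRNA-depleted RNA. The genes prg-1, rde-4 and csr-1 ranked 1, 2 and 4 in poly(A) RNA and 2, 1 and 3 in rRNA-depleted RNA, and rrf-2 was last in both. The gene ppw-2, between them in poly(A) RNA at rank 3, ranked 11 in rRNA-depleted RNA. The gene sago-2 ranked 31 in poly(A) RNA and 9 in rRNA-depleted RNA, and ppw-1 ranked 27 and 4. In the other direction eri-5 ranked 5 and 29, alg-2 ranked 7 and 24, and eri-3 ranked 10 and 26. Spearman's rho of the levels across the 32 genes was 0.46, and it was 0.61 across the 30 genes without sago-2 and ppw-1, which were left out after their ranks were seen. Both measures divide by a length of the same gene, so these are descriptions across genes and not tests.

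**Figure D5:**
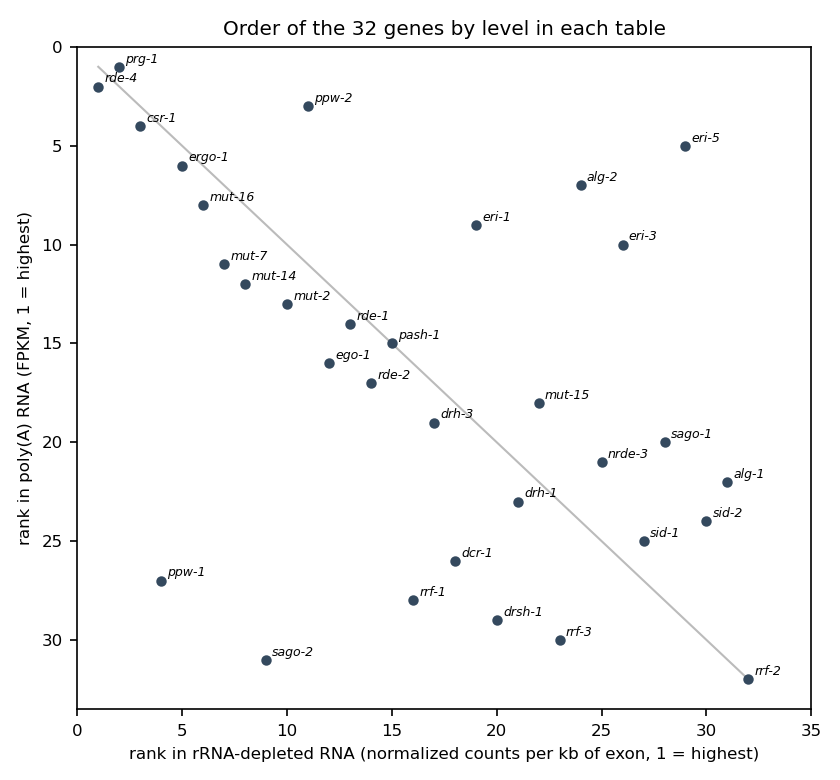
Rank of each of the 32 genes by mean FPKM in poly(A) RNA (vertical, 1 at the top) against its rank by mean normalized count per kilobase of exon in rRNA-depleted RNA (horizontal, 1 at the left); the line marks equal ranks. The genes ppw-1 and sago-2 lie far below the line and eri-5, alg-2 and eri-3 far above it.

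The 32 genes lie on every chromosome, with 13 on chromosome I, 6 on V, 4 each on III and IV, 3 on II and 2 on X. For 21 of them no other gene shares the locus that the poly(A) table gives. Of the 11 that share a locus, 4 share it with a gene the authors tested, and none of the genes called in either table is among these 4. In the WBcel235 annotation the exons of 10 genes overlap those of another gene, 7 of them on the opposite strand, and rde-1, mut-16, pash-1, dcr-1 and rrf-2 are not among them.

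Other genes of small RNA pathways that stand outside the list were mostly lower in CstF50 RNAi too, as were 80.0% of all tested genes. Of 67 such gene names 62 were matched, and wago-3, cde-1, tofu-3, eri-4 and rde-5 were not. Whether these are other names of genes already listed was not checked. Of the 62 genes 50 were tested in poly(A) RNA, where 8 were called lower and 0 higher in CstF50 RNAi. Their median log2 fold change was -1.08, beside -0.90 for all tested genes, of which 13.6% were called lower and 3.12% higher. The lowest fold change was that of the Argonaute gene wago-2, with 8.64 FPKM in CstF50 RNAi and 39.7 FPKM in wild type (q-value 0.0046 in the authors' deposited table). The others called lower were gld-2, eri-9, tofu-7, pir-1, prg-2, nhl-2 and tsn-1. In rRNA-depleted RNA 5 of the 62 were called higher and 2 lower in condition B, beside 5.54% and 2.77% of all genes. The Argonaute genes alg-3 and alg-4, which act in spermatogenesis, had 79.1 and 110 normalized counts in condition B, against 1.35 and 2.01 in condition A. For alg-3 the recovered counts were 275 and 127 in condition B, against 2 and 0 in condition A, and for alg-4 they were 398 and 170 in condition B, against 0 and 1 in condition A. The Argonaute gene wago-10 had 149 and 66 recovered counts in condition B and none in either library of condition A. These genes move with the sperm markers given above, and how far that bears on them was not tested. The other genes called higher were cid-1 and ain-1, and those called lower were tofu-7 and pir-1.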

How the data were processed

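Gene members and lists were chosen with earlier results of these data known. Reads were mapped by the authors to ce10 with Bowtie, and DESeq was used; the submitters' processing notes give no version of either. The authors' counter and annotation are not stated there. The authors deposited 1 FPKM per condition for poly(A) RNA, per the file headers, with p-values and q-values, of which rows with the status OK (8513) had been tested. For rRNA-depleted RNA they deposited mean normalized counts, which are counts divided by a size factor, of conditions A and B, with p-values and adjusted p-values, per the file headers; 25858 rows hold 25640 genes, each used once. Because each table has its own normalization, levels were set across the 2 tables only as ranks.

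Here, fold changes were recomputed from the deposited group values, and the SE of a poly(A) log2 fold change is the one that would give the authors' 2-sided p-value under a normal distribution. No poly(A) value per library was used, so the depth there is unknown. Each rRNA-depleted mean was written as a sum of 2 whole counts over their size factors, matched within 0.7 units of the last printed digit up to means of 30000; this recovered unique counts for 99.31% of genes in condition A and 98.94% in condition B. Recovered counts summed to 35324432 and 14935260 in the libraries of condition B and to 8100440 and 2783085 in those of condition A, without the most abundant genes. Genes with means above 30000, which were not searched, numbered 161 in condition A and 64 in condition B. Over all 25640 genes the deposited means summed to 9.40e+07 in condition A and 2.29e+07 in condition B. The recovered sums therefore do not give the sequencing depth, and the libraries of the 2 conditions differ in composition. Library 1 is the one with the larger size factor. Recovered counts were tested with limma-voom (limma 3.58.1, R 4.3.3) and TMM scaling (trimmed mean of M-values) over 16786 genes with 10 or more counts in 2 libraries, with Benjamini-Hochberg adjustment, as an alternative to the authors' test. The recovery and the test were tried on simulated data. Full values are given for called genes, for genes near 0 and for the highest and most changed genes of each role. Coordinates are the authors' loci on ce10, 1-based; sequence names, exon lengths and overlaps came from the RefSeq gene list and the gene annotation of WBcel235.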

Additional observations from a re-analysis of the deposited data

How the results depend on the processing

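In poly(A) RNA the 3 calls became 0 relative to the median gene and 2 with p-values adjusted over all rows (pash-1 lost its call). At a threshold of 0.1 they became 10, all lower in CstF50 RNAi. The share of all genes called at 0.1 was not counted, so the 10 have no background beside them. The median log2 fold change of -1.02 was -0.12 relative to the median gene, and lay between -1.10 and -0.91 under the other settings. Relative to the median gene the sign turned for alg-2 (0.90), sid-2 (0.55), nrde-3 (0.54), eri-3 (0.38), ergo-1 (0.20), prg-1 (0.15), eri-1 (0.10) and mut-2 (0.10), by the construction of that setting, and none of these passed a test. In rRNA-depleted RNA the 2 calls became 4 (3 higher and 1 lower in condition B) relative to the median gene. They also became 4 (3 higher and 1 lower) when only genes of 10 or more normalized counts were kept, and 5 at a threshold of 0.1. How many of all genes passed there was not counted, so the 4, 4 and 5 have no background beside them. By limma-voom with TMM or with the authors' size factors the calls became 14 (12 higher and 2 lower). These were 43.8% of the 32 genes, beside 35.7% of all genes with TMM and 35.3% with the size factors. The cause of these changes was not tested. Leaving out each library in turn, limma-voom called 6 to 21 genes: 6 without library 1 of condition A (18.8%, beside 25.3% of all genes), 7 without its library 2 (21.9% beside 30.4%), 18 without library 1 of condition B (56.2% beside 41.2%) and 21 without its library 2 (65.6% beside 47.5%). The lone library was then assumed to vary like those of the other condition. Calls of dcr-1 and rrf-2, both higher in condition B, held under each of these settings. The log2 difference of eri-3, 0.01 as deposited, was -0.01 relative to the median gene, -0.02 by limma-voom and -0.03 with the authors' size factors. With a library left out the sign was not stable for eri-3 (-0.10 to 0.13), eri-5 (-0.07 to 0.62), mut-15 (-0.13 to 0.40), pash-1 (-0.18 to 0.04, 0.02 without library 2 of condition B), ppw-2 (-0.07 to 0.07, 0.03 without library 1 of condition B) and rde-4 (-0.02 to 0.24), none of them called. No paired analysis was possible because the poly(A) columns hold group values and the recovered libraries carry no replicate number, and no poly(A) library could be left out for the same reason. Low counts limit the rRNA-depleted comparison most in condition A, where rrf-2 rests on 46 and 19 counts.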

Other observations

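The 10 listed genes that the poly(A) table gives only under a sequence name or another gene name were matched through the RefSeq gene list after the data were seen. Adding them left the picture of the 32 genes much as it was. In poly(A) RNA 4 of 34 tested genes were then called, all lower in CstF50 RNAi, beside 16.8% of all tested genes, 13.6% lower. In rRNA-depleted RNA 3 of 42 genes were called, all higher in condition B, beside 8.31% of all genes, 5.54% higher. The added poly(A) call was rde-11, whose product takes part in the decay of RNAi targets. For rde-11 the authors' deposited table gives 10.8 FPKM in CstF50 RNAi and 45.2 FPKM in wild type (log2 fold change -2.06, implied SE 0.59, q-value 0.00864). In rRNA-depleted RNA rde-11 had 446.0 and 397.9 normalized counts in condition B, against 393.9 and 277.0 in condition A (DESeq adjusted p = 1 in the authors' deposited table).

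The added rRNA-depleted call was drh-2, a relative of the Dicer-related helicase gene drh-1 that lies next to it on chromosome IV, from 6613907 to 6618487 (ce10), and is annotated as a pseudogene in WBcel235. It had 731.5 and 707.5 normalized counts in condition B, against 301.8 and 341.2 in condition A, with a DESeq adjusted p of 0.00031 in the authors' deposited table. The difference was 1.16 on the log2 scale, where that of drh-1 was 0.34 without a call. Reads can match both copies, and the difference between their fold changes was not tested.

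The nuclear Argonaute gene hrde-1 and the cytoplasmic Argonaute gene wago-1, both of the germline, were above all 32 genes in rRNA-depleted RNA per kilobase of exon. For wago-1 the level was 2498 normalized counts per kilobase in condition B and 2682 in condition A, and for hrde-1 it was 2011 in condition B and 1872 in condition A. In poly(A) RNA wago-1 was above prg-1, the highest of the 32, with 90.7 FPKM in CstF50 RNAi and 198 FPKM in wild type (q-value 0.0633 in the authors' deposited table), and hrde-1 had 39.6 FPKM in CstF50 RNAi and 62.4 FPKM in wild type (q-value 0.309). The nuclear RNAi genes nrde-1, nrde-2, nrde-4 and hrde-1 had normalized counts higher in both libraries of condition B, as nrde-3 had. Of the 16786 genes with enough recovered counts 41.7% did so. For nrde-2 the normalized counts were 2449 and 2451 in condition B, against 1758 and 1754 in condition A (DESeq adjusted p = 0.207 and limma-voom adjusted p = 0.00274). The log2 differences of nrde-4 and hrde-1 were only 0.08 and 0.10. The genes rde-8, rde-10, rde-12 and nrde-4 were called in neither table. In the authors' deposited table rde-8 had 43.3 FPKM in CstF50 RNAi and 53.6 FPKM in wild type, rde-12 had 11.4 FPKM in CstF50 RNAi and 14.5 FPKM in wild type, and nrde-4 had 6.99 FPKM in CstF50 RNAi and 17.1 FPKM in wild type. The gene rde-10, with 5.52 FPKM in CstF50 RNAi and 6.15 FPKM in wild type, was not tested there.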
